A study of Rattus norvegicus with 12 samples.

Results

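The genes described here encode the uptake and mitochondrial oxidation of fatty acids and the nuclear factors that set the expression of that pathway. They were taken by name: 35 genes were listed, and every array probe that the scanner files assign to 1 of them was followed, which gave 39 probes. Of the 35 genes 34 passed the filter on dim probes and were among the 14376 genes tested, and the probe for Ucp3, a mitochondrial carrier of the uncoupling protein family, was not well above background on any of the 12 arrays. Of the 34 tested members 33 were well above background on all 12 arrays, and Plin5 on 10. The cells were ventricular cardiomyocytes isolated from neonatal rats, grown for 24 h with 10% serum on flexible silicone plates coated with collagen. One group of 3 cultures stayed unstretched as the control, and 3 groups of 3 cultures each were pulled in pulses along both axes, with an elongation of 20%, for 2, 6 or 24 h. The question was how gene expression follows the duration of stretch. Total RNA of each culture was read on its own array with 1 dye.

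Long-chain fatty acids are freed from circulating triglyceride by lipoprotein lipase, taken up through proteins such as Cd36, and activated to acyl-CoA. Carnitine palmitoyltransferases and a carrier in the inner membrane move the acyl group into the mitochondrial matrix, where a repeating cycle of dehydrogenation, hydration, dehydrogenation and thiolysis releases acetyl-CoA. The adult heart takes most of its energy from this route, whereas the heart around birth relies more on glucose and lactate and raises fatty-acid oxidation in the days after. The receptor Ppara, the estrogen-related receptors and the Ppargc1 coactivators drive transcription of the enzymes.

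The 75th percentile of the processed signal lay between 1142 and 1671 intensity units over the 12 arrays, and no spot was saturated. Arrays of 1 group correlated with each other with r between 0.996 and 0.998 over the genes tested. The arrays lay on 2 slides: the first held all control and 2 h cultures and replicates 1 and 2 at 6 h, and the second held replicate 3 at 6 h and all cultures at 24 h. A comparison of 24 h with control within 1 slide was therefore not possible, and each call of a member at 24 h is given also with the slide as a block. The labels name no time in culture for the controls, so stretch and time in culture cannot be told apart. The labels call the cultures biological replicates but do not say whether they came from separate isolations, so errors and p-values measure the spread between cultures. Levels below are log2 processed signal minus the 75th percentile of the array, and they compare cultures for 1 gene, not genes with each other. Changes are differences of these levels with the standard error of the fit, n = 3 cultures per group, and a gene was called at a limma p adjusted over all genes tested of under 0.05.

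At 24 h nearly the whole pathway stood lower than in control, from lipoprotein lipase at the cell surface to the last step of the oxidation cycle. Of the 34 members tested 27 were called lower and 1 higher, which is 82.4% called, where 47.9% of all genes tested were called, 31.7% lower and 16.2% higher. The median change of the members at 24 h was -0.32 on the log2 scale, against -0.08 for all genes tested. The levels of the 3 control cultures and of the 3 cultures at 24 h did not overlap for 32 of the 34 members (94.1%), where this held for 58.9% of all genes. At 2 h 7 members and at 6 h 15 did not overlap with control, 20.6% and 44.1%, beside 28.6% and 39.4% of all genes. These counts depend on how the arrays are put on 1 scale. With each array centred on its median 13 members were called lower and 4 higher, where 15.3% and 38.8% of all genes were, and with scaling by the spike-in spots 2 lower and 2 higher, where 4.03% and 34% of all genes were. These scalings shift all genes of an array alike, to a median of 0.11 and 0.35 over all genes, and the members' median stayed 0.24 below that of all genes under each of them by construction. In RNA from whole cultures, fewer cells of a type and less RNA per cell cannot be told apart.

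At 2 h and 6 h few members were called. At 2 h 4 members were called higher (Slc25a20, Acaa2, Decr1 and Ppara) and 1 lower (Ppargc1a), 14.7% of the members beside 9.2% of all genes, of which 3.1% were higher and 6.1% lower. The members' median change at 2 h was 0.08, against -0.01 for all genes. Between arrays of 1 group the median level over the tested members had a standard deviation of 0.07. Of the 34 changes 31 were above 0, and the share of all genes above 0 is not reported here. At 6 h no member was called higher and 4 were called lower (Lpl, Slc27a1, Hadh and Ppargc1a), 11.8% of the members beside 16.8% of all genes. Of all genes 5.06% were called higher and 11.7% lower at 6 h, so the share of members called lower stood at the background. The median at 6 h was -0.03, against -0.05 for all genes. With each array centred on its median the 6 h calls were 5 higher and 2 lower, where 14.4% and 5.16% of all genes were. Spike-in scaling gave 16 higher and 0 lower at 6 h, where 42.1% and 0.341% of all genes were, while at 2 h spike-in scaling left 0 calls. With it the standard error of the members was 0.20. The 2 h changes were then 0.46 for Slc25a20, 0.47 for Acaa2 and Decr1, 0.49 for Ppara and -0.12 for Ppargc1a. The log2 spike-in signal minus the 75th percentile was 1.61 in control replicate 2, against 1.18 and 1.13 in control replicates 1 and 3. The 2 h count fell to 2 without control replicate 1 or 2 h replicate 2 and to 3 without control replicate 3 or 2 h replicate 1 or 3. Enzymes, carriers and other proteins had 3 members higher and 0 lower of 29 at 2 h, 0 and 3 at 6 h, and 1 and 24 at 24 h. The 5 nuclear regulators had 1 higher and 1 lower at 2 h, 0 and 1 at 6 h, and 0 and 3 at 24 h. The plot of changes by role shows the columns of the 3 times side by side.

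**Figure D1:**
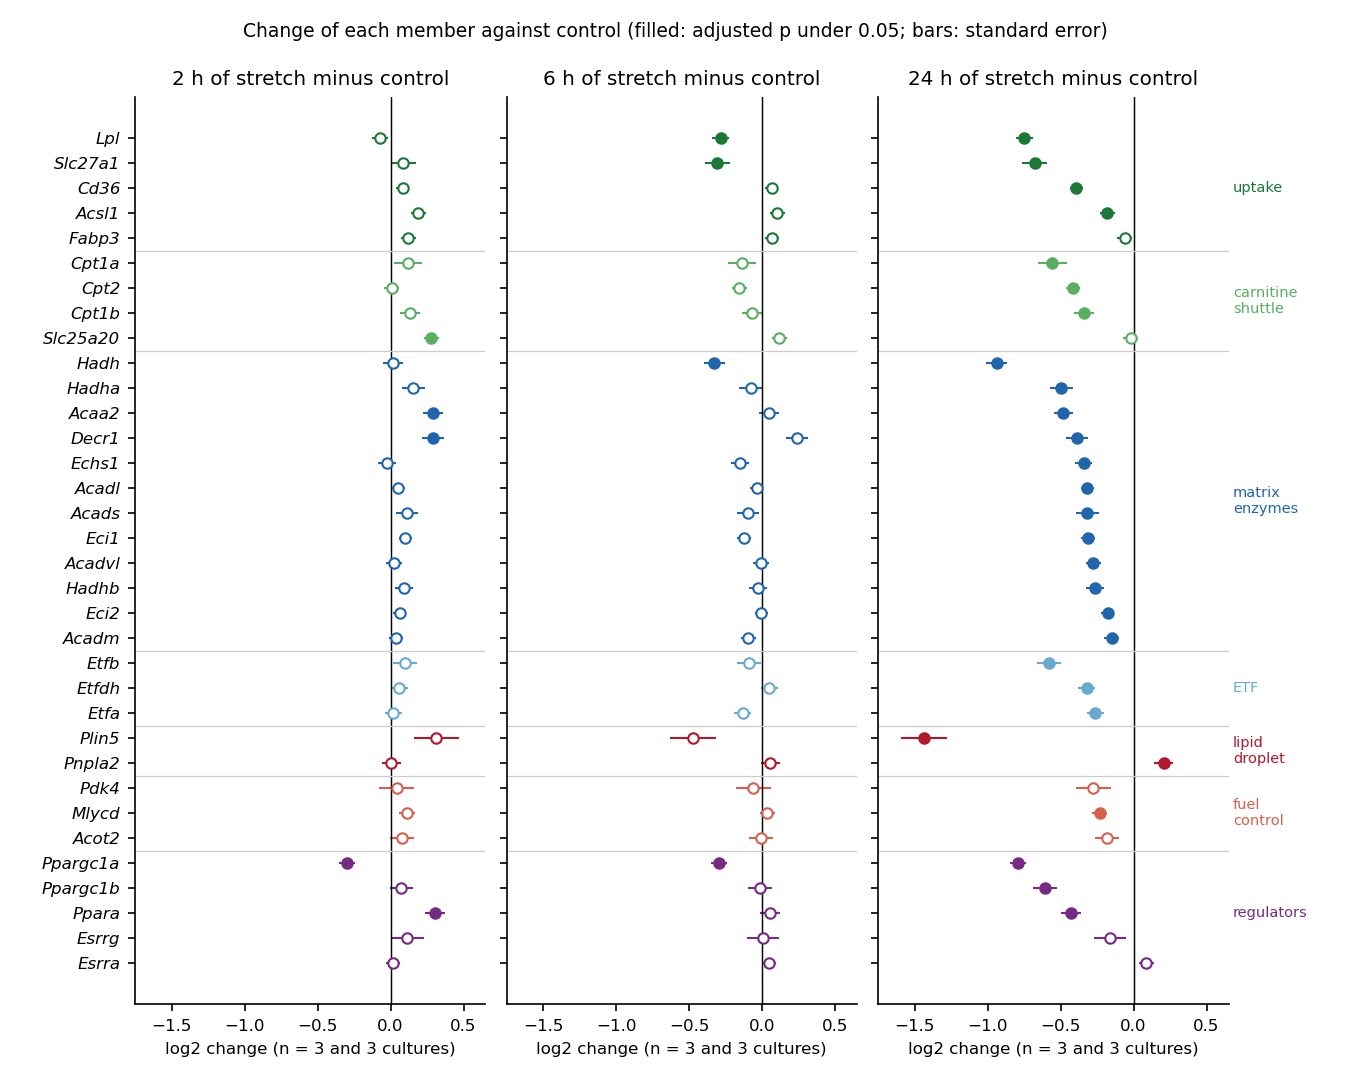
Log2 change of each of the 34 tested members against control after 2, 6 and 24 h of stretch, grouped by role and, within a role, ordered by the change at 24 h. Points are differences of means of 3 cultures under scaling to the 75th percentile, and bars are standard errors. Filled points passed an adjusted p of 0.05: 5 members at 2 h, 4 at 6 h and 28 at 24 h. Spike-in scaling, which is not drawn, left 4 called at 24 h.

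Among the genes of uptake and activation, 4 of 5 were lower at 24 h, and 2 of these were already lower at 6 h. Lpl encodes lipoprotein lipase, the enzyme that frees fatty acids from triglyceride-rich lipoproteins (probe on rn4 chromosome 16, 22533294 to 22533353). Its levels were -1.56, -1.52 and -1.66 in the control cultures, -1.68, -1.60 and -1.69 at 2 h, -1.86, -1.79 and -1.95 at 6 h and -2.36, -2.27 and -2.37 at 24 h. Every culture at 6 h lay below every control, and every culture at 24 h below every culture at 6 h. Lpl fell by 0.28 ± 0.06 at 6 h (adjusted p = 0.00854) and by 0.75 ± 0.06 at 24 h (adjusted p = 4.29e-06), to 1.68-fold below control. The 6 h call of Lpl was lost on slide 1 alone (-0.24 ± 0.06, adjusted p = 0.0548) and with median centring, its direction turned with spike-in scaling (0.19, not called), and it stood with the slide as a block (-0.24 ± 0.06, adjusted p = 0.0335). Slc27a1 encodes fatty acid transport protein 1, which takes up long-chain fatty acids and activates them (rn4 chromosome 16, 18786624 to 18786683). Its levels were 0.19, 0.43 and 0.46 in control, 0.54, 0.51 and 0.28 at 2 h, -0.02, 0.12 and 0.07 at 6 h and -0.26, -0.36 and -0.33 at 24 h. Neither the 6 h nor the 24 h cultures overlapped the controls. The fall of Slc27a1 was 0.31 ± 0.09 at 6 h (adjusted p = 0.036), which 13 of 26 alternatives did not keep, and 0.68 ± 0.09 at 24 h (adjusted p = 1.31e-04). The 6 h call was lost without control replicate 2 or 3, any of the 6 h cultures or 24 h replicate 3, with changes of -0.34 to -0.26.

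Cd36, the main transporter for long-chain fatty acids at the sarcolemma, had levels of 3.61, 3.69 and 3.64 in control, 3.74, 3.77 and 3.68 at 2 h, 3.70, 3.70 and 3.73 at 6 h and 3.24, 3.31 and 3.21 at 24 h. The 3 cultures at 24 h lay below all others, and Cd36 fell by 0.39 ± 0.04 (adjusted p = 5.91e-05), with a second probe at -0.43. Acsl1, the major long-chain acyl-CoA synthetase of the heart, was at 2.04, 2.22 and 2.14 in control, 2.31, 2.36 and 2.31 at 2 h, 2.26, 2.28 and 2.18 at 6 h and 1.91, 1.99 and 1.97 at 24 h. The 2 h cultures all lay above the controls, with a change of 0.19 ± 0.05 that missed the threshold (adjusted p = 0.0506) but passed it without control replicate 2 (0.23, adjusted p = 0.0418). The 24 h cultures all lay below, with a fall of 0.18 ± 0.05 (adjusted p = 0.0179), a call lost without control replicate 2 (-0.13, adjusted p = 0.0713) or 24 h replicate 1 (-0.16, 0.0625). Fabp3, the fatty-acid-binding protein of heart muscle cytosol, was not called at any time: its change at 24 h was -0.06, with a 95% interval of -0.17 to 0.05. With the slide as a block the 24 h changes of Lpl (-0.63 ± 0.10, adjusted p = 0.00377), Slc27a1 (-0.70 ± 0.16, 0.0216) and Cd36 (-0.42 ± 0.08, 0.0106) remained called and that of Acsl1 did not (-0.09 ± 0.10, 0.576).

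The promoter of Slc27a1 is shown because its gene is 1 of 6 members that fell by more than 1.5-fold at 24 h and because it holds a core hexamer of the kind bound by nuclear receptors. The sequence is RefSeq's, build GRCr8, the 250 bases before the annotated start (chr16:18312717-18312966, plus strand), with capitals for the letters AGGTCA on either strand.
Slc27a1: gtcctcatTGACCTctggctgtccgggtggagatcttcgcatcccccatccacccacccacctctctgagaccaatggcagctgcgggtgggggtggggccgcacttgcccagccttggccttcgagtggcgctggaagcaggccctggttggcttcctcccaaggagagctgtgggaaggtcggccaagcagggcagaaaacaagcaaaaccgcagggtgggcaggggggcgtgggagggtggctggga
AGGTCA is the core hexamer from which the response elements of Ppara with its partner Rxr and of the estrogen-related receptors are built, and here it is read on the minus strand, 242 bases before the start.

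In the carnitine shuttle the transferases were called lower at 24 h and the carrier was not. Cpt1a and Cpt1b are the liver and muscle forms of carnitine palmitoyltransferase 1, the step at which malonyl-CoA controls entry into the mitochondrion. Levels of Cpt1a were 0.68, 1.08 and 1.06 in control, 1.1, 1.11 and 0.97 at 2 h, 0.81, 0.90 and 0.71 at 6 h and 0.41, 0.41 and 0.33 at 24 h. Levels of Cpt1b were 3.30, 3.44 and 3.32 in control, 3.56, 3.48 and 3.43 at 2 h, 3.28, 3.37 and 3.21 at 6 h and 2.93, 3.14 and 2.97 at 24 h. For both the 24 h cultures lay below all controls, while 1 control culture of Cpt1a, replicate 1, stood well under the other 2. Cpt1a fell by 0.56 ± 0.10 (adjusted p = 9.60e-04) and Cpt1b by 0.34 ± 0.07 (adjusted p = 0.0026), and a second Cpt1b probe fell by 0.58. Cpt2, the transferase of the inner membrane, was at 1.22, 1.27 and 1.32 in control, 1.29, 1.33 and 1.21 at 2 h, 1.13, 1.16 and 1.05 at 6 h and 0.88, 0.88 and 0.80 at 24 h. Its 6 h cultures lay below the controls without a call (adjusted p = 0.0591) and it fell by 0.41 ± 0.05 at 24 h (adjusted p = 9.96e-05). Under the slide block the call of Cpt2 remained (-0.32 ± 0.09, adjusted p = 0.0408), and those of Cpt1a (-0.41 ± 0.18, 0.151) and Cpt1b (-0.22 ± 0.12, 0.275) did not.

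Slc25a20, the carnitine-acylcarnitine translocase that exchanges acylcarnitine for free carnitine across the inner membrane, was called at 2 h alone. It was at 1.11, 1.0 and 1.12 in control, 1.37, 1.39 and 1.31 at 2 h, 1.19, 1.19 and 1.20 at 6 h and 1.02, 1.15 and 1.0 at 24 h. All 2 h cultures lay above all controls, and the 24 h cultures spread over the control range. Slc25a20 rose by 0.28 ± 0.05 at 2 h (adjusted p = 0.0105), a call lost when the fit held only the 2 groups compared and under spike-in scaling. At 24 h its change was -0.02 with a 95% interval of -0.14 to 0.10.

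All 12 enzymes of the matrix were called lower at 24 h, by 0.15 to 0.94 on the log2 scale, where 31.7% of all genes were called lower. With each array centred on its median 3 of the 12 were called (Hadha, Hadh and Acaa2), and with spike-in scaling Hadh alone. Hadh encodes the dehydrogenase for short- and medium-chain 3-hydroxyacyl-CoA (rn4 chromosome 2, 228698567 to 228698626). Its levels were 3.78, 3.90 and 3.82 in control, 3.92, 3.81 and 3.82 at 2 h, 3.51, 3.60 and 3.41 at 6 h and 2.86, 3.02 and 2.80 at 24 h. The 6 h cultures lay below all controls and the 24 h cultures below all 6 h cultures. Hadh fell by 0.33 ± 0.07 at 6 h (adjusted p = 0.0111) and by 0.94 ± 0.07 at 24 h (adjusted p = 3.70e-06), to 1.92-fold below control, the largest change among the enzymes. It kept its 24 h call under every alternative run, including the slide as a block (-0.79 ± 0.12, adjusted p = 0.00319). The 250 bases before its start (RefSeq, GRCr8, chr2:222504447-222504696, minus strand) are given as the sequence of the enzyme that fell most, and they hold no AGGTCA on either strand.
Hadh: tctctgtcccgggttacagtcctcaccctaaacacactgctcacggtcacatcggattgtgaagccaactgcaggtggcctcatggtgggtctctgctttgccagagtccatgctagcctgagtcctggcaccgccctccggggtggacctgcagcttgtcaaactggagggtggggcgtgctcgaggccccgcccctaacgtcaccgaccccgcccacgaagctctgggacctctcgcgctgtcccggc

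The first step of each cycle is taken by acyl-CoA dehydrogenases that differ in chain length. Acadvl, for very long chains, was at 2.18, 2.32 and 2.29 in control, 2.35, 2.23 and 2.27 at 2 h, 2.26, 2.31 and 2.21 at 6 h and 2.03, 1.94 and 1.99 at 24 h. Acadl, for long chains, was at 4.59, 4.63 and 4.57, then 4.69, 4.66 and 4.60, 4.57, 4.59 and 4.52 and 4.23, 4.33 and 4.28 at the same times. Neither was called at 2 h or 6 h, and both had all 24 h cultures below every other culture. The falls at 24 h were 0.28 ± 0.05 for Acadvl (adjusted p = 0.00189) and 0.32 ± 0.04 for Acadl (adjusted p = 2.28e-04). Acadm, for medium chains, was at 2.68, 2.75 and 2.70 in control, 2.70, 2.86 and 2.69 at 2 h, 2.63, 2.65 and 2.58 at 6 h and 2.56, 2.58 and 2.54 at 24 h. Acads, for short chains, was at 3.40, 3.07 and 3.32, then 3.46, 3.31 and 3.36, 3.18, 3.19 and 3.13 and 2.95, 2.95 and 2.95. The control cultures of Acads were spread over a wider range than its 24 h cultures, which lay close together. Acadm had the smallest fall of the matrix enzymes, 0.15 ± 0.05 (adjusted p = 0.0323), and Acads fell by 0.32 ± 0.08 (adjusted p = 0.00676). The Acadm call was lost without control replicate 2 or 3 or any of the 24 h cultures, with changes of -0.16 to -0.13 and adjusted p of 0.0518 to 0.0995. None of these 4 calls remained with the slide as a block (adjusted p = 0.206 for Acadvl, 0.0586 for Acadl, 0.561 for Acadm and 0.267 for Acads).

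Hadha and Hadhb encode the alpha and beta subunits of the mitochondrial trifunctional protein, which carries out the last 3 steps of the cycle on long chains. Hadha was at 1.63, 1.92 and 1.92 in control, 2.05, 1.97 and 1.92 at 2 h, 1.73, 1.84 and 1.68 at 6 h and 1.30, 1.34 and 1.36 at 24 h. Hadhb was at 1.03, 1.14 and 1.09, then 1.20, 1.22 and 1.12, 1.12, 1.07 and 0.99 and 0.73, 0.93 and 0.81. Both subunits had their lowest cultures at 24 h, with no overlap with control. Hadha fell by 0.49 ± 0.08 (adjusted p = 4.99e-04; a second probe fell by 0.39) and Hadhb by 0.27 ± 0.06 (adjusted p = 0.00509). Fitted with a slide term, the changes were -0.39 ± 0.14 (adjusted p = 0.0965) and -0.16 ± 0.11 (adjusted p = 0.374), neither called. The genes lie head to head: in RefSeq's build GRCr8 their annotated starts are separated by 300 bases (chr6:31907501-31907800), which is the promoter of both, Hadha reading rightward on the plus strand and Hadhb leftward on the minus strand. That stretch is shown because the subunits share it, and it holds no AGGTCA on either strand.
Hadha and Hadhb: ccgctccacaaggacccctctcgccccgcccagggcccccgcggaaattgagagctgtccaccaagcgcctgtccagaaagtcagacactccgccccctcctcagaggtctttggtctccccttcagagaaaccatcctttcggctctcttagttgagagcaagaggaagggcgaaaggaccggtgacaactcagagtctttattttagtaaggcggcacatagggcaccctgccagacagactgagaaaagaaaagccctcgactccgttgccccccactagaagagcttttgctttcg

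Echs1, the short-chain enoyl-CoA hydratase, was at 3.04, 3.16 and 2.94 in control, 3.03, 3.07 and 2.96 at 2 h, 2.91, 2.86 and 2.92 at 6 h and 2.65, 2.77 and 2.68 at 24 h. Its 6 h cultures lay below all controls without a call, and at 24 h it fell by 0.34 ± 0.06 (adjusted p = 0.00108). Eci1 and Eci2 are enoyl-CoA isomerases, which move the double bond of unsaturated fatty acids into a position the cycle can use. Eci1 was at 2.36, 2.29 and 2.29 in control, 2.48, 2.41 and 2.36 at 2 h, 2.22, 2.19 and 2.15 at 6 h and 1.97, 2.03 and 2.01 at 24 h. Eci2 was at 1.5, 1.62 and 1.56, then 1.65, 1.62 and 1.59, 1.55, 1.59 and 1.52 and 1.39, 1.39 and 1.37. The 6 h cultures of Eci1 lay below its controls without a call, and for both isomerases the 24 h cultures lay below all others. The falls at 24 h were 0.31 ± 0.05 for Eci1 (adjusted p = 3.62e-04) and 0.18 ± 0.04 for Eci2 (adjusted p = 0.00725). With the slide as a block Echs1, Eci1 and Eci2 were not called (adjusted p = 0.0587, 0.0824 and 0.35).

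Acaa2 and Decr1 were high at 2 h and low at 24 h. Acaa2, a thiolase of the matrix, was at 2.24, 2.37 and 2.31 in control, 2.69, 2.62 and 2.49 at 2 h, 2.39, 2.38 and 2.29 at 6 h and 1.75, 1.93 and 1.80 at 24 h. Decr1, the dienoyl-CoA reductase needed for polyunsaturated fatty acids, was at 3.22, 3.19 and 3.08, then 3.58, 3.38 and 3.40, 3.46, 3.41 and 3.33 and 2.67, 2.91 and 2.75. For each, all 2 h cultures lay above and all 24 h cultures below the controls, and Decr1 was still above the controls at 6 h without a call (adjusted p = 0.0554). Decr1 was called higher at 6 h with normexp (0.25), median centring (0.34), spike-in scaling (0.71) and in the submitters' value table (0.26). That held also with only probes well above background on all 12 arrays, in a fit of only the groups compared and with other eBayes options. It held without 2 h replicate 1 or 24 h replicate 2 as well. Acaa2 rose by 0.29 ± 0.07 at 2 h (adjusted p = 0.024) and fell by 0.48 ± 0.07 at 24 h (adjusted p = 2.38e-04). Decr1 rose by 0.29 ± 0.08 (adjusted p = 0.0399) and fell by 0.38 ± 0.08 (adjusted p = 0.00203). The 2 h call was lost in 7 of 26 alternatives for Acaa2 and in 15 of 26 for Decr1. For Acaa2 these included control replicates 1 and 3 and 2 h replicates 1 and 2, each left out in turn (0.25 to 0.29, adjusted p of 0.0601 to 0.0777). For Decr1 they included each control and 2 h culture, 6 h replicates 1 and 2 and 24 h replicate 3 (0.23 to 0.33, adjusted p of 0.0504 to 0.129). At 24 h the slide as a block gave -0.38 ± 0.12 (adjusted p = 0.0645) for Acaa2 and -0.28 ± 0.14 (0.209) for Decr1.

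The electron transfer flavoprotein takes electrons from all acyl-CoA dehydrogenases and passes them through Etfdh to ubiquinone, and its 3 genes were lower at 24 h. Etfb, its beta subunit, was at 4.08, 4.08 and 4.05 in control, 4.39, 4.0 and 4.11 at 2 h, 4.01, 3.98 and 3.96 at 6 h and 3.46, 3.56 and 3.46 at 24 h. The controls lay close together, and the 24 h cultures were apart from all others. Etfb fell by 0.58 ± 0.08 (adjusted p = 2.57e-04), and with the slide as a block by nearly as much (-0.55 ± 0.16, adjusted p = 0.0431). Etfa, the alpha subunit, was at 1.1, 0.96 and 0.97, then 1.02, 1.07 and 1.0, 0.91, 0.90 and 0.83 and 0.71, 0.85 and 0.69. Etfdh, the ubiquinone oxidoreductase, was at 0.43, 0.60 and 0.50, then 0.56, 0.63 and 0.53, 0.62, 0.59 and 0.47 and 0.16, 0.19 and 0.22. The 6 h cultures of Etfa lay below its controls without a call, and those of Etfdh overlapped its controls. Etfa fell by 0.26 ± 0.06 (adjusted p = 0.00378) and Etfdh by 0.32 ± 0.06 (adjusted p = 0.00113), calls that the slide as a block did not keep (0.267 and 0.227).

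The 2 members at the lipid droplet moved in opposite directions. Plin5 encodes perilipin 5, a droplet coat protein of oxidative tissues that tethers droplets to mitochondria and restrains lipolysis. Its probe lies on a sequence not placed on a chromosome in rn4 and was dim, and it was well above background on 1 of the 3 arrays at 24 h and on all others. Levels of Plin5 were -5.20, -4.87 and -5.22 in control, -4.52, -4.80 and -5.02 at 2 h, -5.47, -5.85 and -5.39 at 6 h and -6.44, -6.46 and -6.69 at 24 h. The 24 h cultures lay below every other culture, and the 6 h cultures lay between these and the controls. Plin5 fell by 1.43 ± 0.16 at 24 h (adjusted p = 4.58e-05), 2.7-fold, the largest change of any member in this fit, though with normexp background correction and in the submitters' value table Hadh fell more, by 0.91 in each. The size depends on how background is treated: the change of Plin5 was -0.80 with the normexp background correction and -0.49 in the submitters' value table, called in both. Under the slide block it was -1.71 ± 0.28 (adjusted p = 0.00423). Plin5 was 1 of 2 members, with Hadh, called at 24 h under every alternative that tested it, 24 for Plin5, which the strictest filter left out, and 25 for Hadh. Its promoter (RefSeq, GRCr8, chr9:1033285-1033534, minus strand) is shown because of the size of this fall, and it holds an AGGTCA on its own strand, 157 bases before the start.
Plin5: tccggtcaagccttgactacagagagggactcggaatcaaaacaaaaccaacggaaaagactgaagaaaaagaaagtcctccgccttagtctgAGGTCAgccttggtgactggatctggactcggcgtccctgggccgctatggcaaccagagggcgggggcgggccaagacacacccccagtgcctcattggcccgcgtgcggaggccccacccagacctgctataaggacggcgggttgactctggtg

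Pnpla2, the triglyceride lipase that starts droplet lipolysis, was the member called higher at 24 h. Its levels were -1.0, -1.05 and -1.04 in control, -0.90, -1.17 and -0.99 at 2 h, -0.99, -0.95 and -0.97 at 6 h and -0.81, -0.76 and -0.89 at 24 h. All 24 h cultures lay above all controls. Pnpla2 rose by 0.21 ± 0.07 (adjusted p = 0.0228), the same size as with the slide as a block, where it was not called (0.21 ± 0.12, adjusted p = 0.285). The call was also lost without control replicate 2 or 3 or 24 h replicate 1 or 2, with changes of 0.18 to 0.20 and adjusted p of 0.0579 to 0.0793.

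Among the genes that control fuel choice, 1 of 3 tested was called at 24 h. Mlycd, malonyl-CoA decarboxylase, which removes the inhibitor of Cpt1, was at 2.41, 2.39 and 2.42 in control, 2.60, 2.41 and 2.54 at 2 h, 2.46, 2.47 and 2.40 at 6 h and 2.14, 2.21 and 2.18 at 24 h. The 24 h cultures of Mlycd stood apart from the rest and the fall was 0.23 ± 0.05 (adjusted p = 0.00418; 0.282 with the slide as a block). Pdk4, the pyruvate dehydrogenase kinase that holds back glucose oxidation and is a classic Ppara target, changed by -0.27 ± 0.12 (adjusted p = 0.0833) and was not called, but it was called lower with normexp (-0.38, adjusted p = 0.0203), without control replicate 1 (-0.38, 0.0263) and without 24 h replicate 3 (-0.37, 0.0366). Its levels lay between -4.51 and -4.08 in control, 2 h and 6 h cultures and between -4.74 and -4.38 at 24 h, so the groups overlapped. Acot2, a mitochondrial acyl-CoA thioesterase, gave unlike values with its 2 probes. The brighter changed by -0.18 ± 0.08 (adjusted p = 0.0892) and the other by -0.65 ± 0.11 (adjusted p = 0.00106 among all probes). Their mean was called (-0.42, adjusted p = 0.00192), as was the brighter probe with normexp (-0.22), with other eBayes options and without 24 h replicate 2 (-0.24). Acot2 has a close copy in Acot1, which was called higher at 24 h under scaling to the 75th percentile. Whether the probes tell the 2 genes apart was not tested.

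The coactivator Ppargc1a was called lower at 2 h, the only member to be so. Ppargc1a (PGC-1alpha) and Ppargc1b (PGC-1beta) bind Ppara and the estrogen-related receptors and raise transcription of mitochondrial genes. Levels of Ppargc1a (rn4 chromosome 14, 64365667 to 64365726) were -2.06, -2.05 and -2.10 in control, -2.36, -2.31 and -2.42 at 2 h, -2.37, -2.29 and -2.43 at 6 h and -2.84, -2.94 and -2.80 at 24 h. The 2 h and 6 h cultures lay at 1 level below all controls, and the 24 h cultures lay on a second, lower level. Ppargc1a fell by 0.30 ± 0.06 at 2 h (adjusted p = 0.0101), by 0.29 ± 0.06 at 6 h (adjusted p = 0.0062) and by 0.79 ± 0.06 at 24 h (adjusted p = 2.65e-06; 1.73-fold). Its calls at 2, 6 and 24 h were each lost under 1 alternative, spike-in scaling. Fitted with a slide term, the 24 h change was -0.69 ± 0.10 (adjusted p = 0.0024). The 250 bases before its start (RefSeq, GRCr8, chr14:63634058-63634307, plus strand) are shown because it was the member called lower at the earliest time, and they hold no AGGTCA.
Ppargc1a: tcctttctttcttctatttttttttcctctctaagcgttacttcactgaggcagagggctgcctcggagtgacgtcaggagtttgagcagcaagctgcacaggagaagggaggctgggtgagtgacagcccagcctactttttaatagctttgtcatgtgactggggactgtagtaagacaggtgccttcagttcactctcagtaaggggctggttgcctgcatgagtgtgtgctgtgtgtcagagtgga

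Ppargc1b was at -0.04, 0.14 and 0.13 in control, -0.03, 0.30 and 0.19 at 2 h, 0.00, 0.09 and 0.09 at 6 h and -0.57, -0.48 and -0.53 at 24 h (rn4 chromosome 18, 57280683 to 57280742). It was not called at 2 h or 6 h and fell at 24 h by 0.61 ± 0.08 (adjusted p = 1.76e-04). Ppara, the receptor for fatty acids that induces much of the pathway, was at -3.20, -3.24 and -3.08 in control, -2.96, -2.82 and -2.82 at 2 h, -3.11, -3.16 and -3.09 at 6 h and -3.65, -3.47 and -3.69 at 24 h. Like Acaa2 and Decr1 it had all 2 h cultures above and all 24 h cultures below the controls. Ppara rose by 0.31 ± 0.07 at 2 h (adjusted p = 0.0223) and fell by 0.43 ± 0.07 at 24 h (adjusted p = 5.81e-04). The 2 h call was lost in 8 of 26 alternatives, among them control replicates 1 and 2 and 2 h replicates 2 and 3 left out in turn (0.27 to 0.29, adjusted p of 0.0623 to 0.0825). With the slide as a block Ppargc1b (-0.65 ± 0.15, adjusted p = 0.0206) and Ppara (-0.48 ± 0.13, 0.038) remained called. The orphan receptor Esrra, which binds its sites together with Ppargc1a, was not called at any time. Esrra changed by 0.09 ± 0.05 at 24 h with a 95% interval of -0.02 to 0.20, although its 24 h cultures all lay above the controls. It was called higher at 24 h with normexp (0.16), median centring (0.28), spike-in scaling (0.52) and in the submitters' value table (0.24). Esrrg, its relative in oxidative muscle, was dim and changed by -0.16 ± 0.11 (adjusted p = 0.243). It was called lower at 24 h with normexp (-0.37, adjusted p = 0.0132) and in a fit of only the groups compared (adjusted p = 0.0474).

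**Figure D2:**
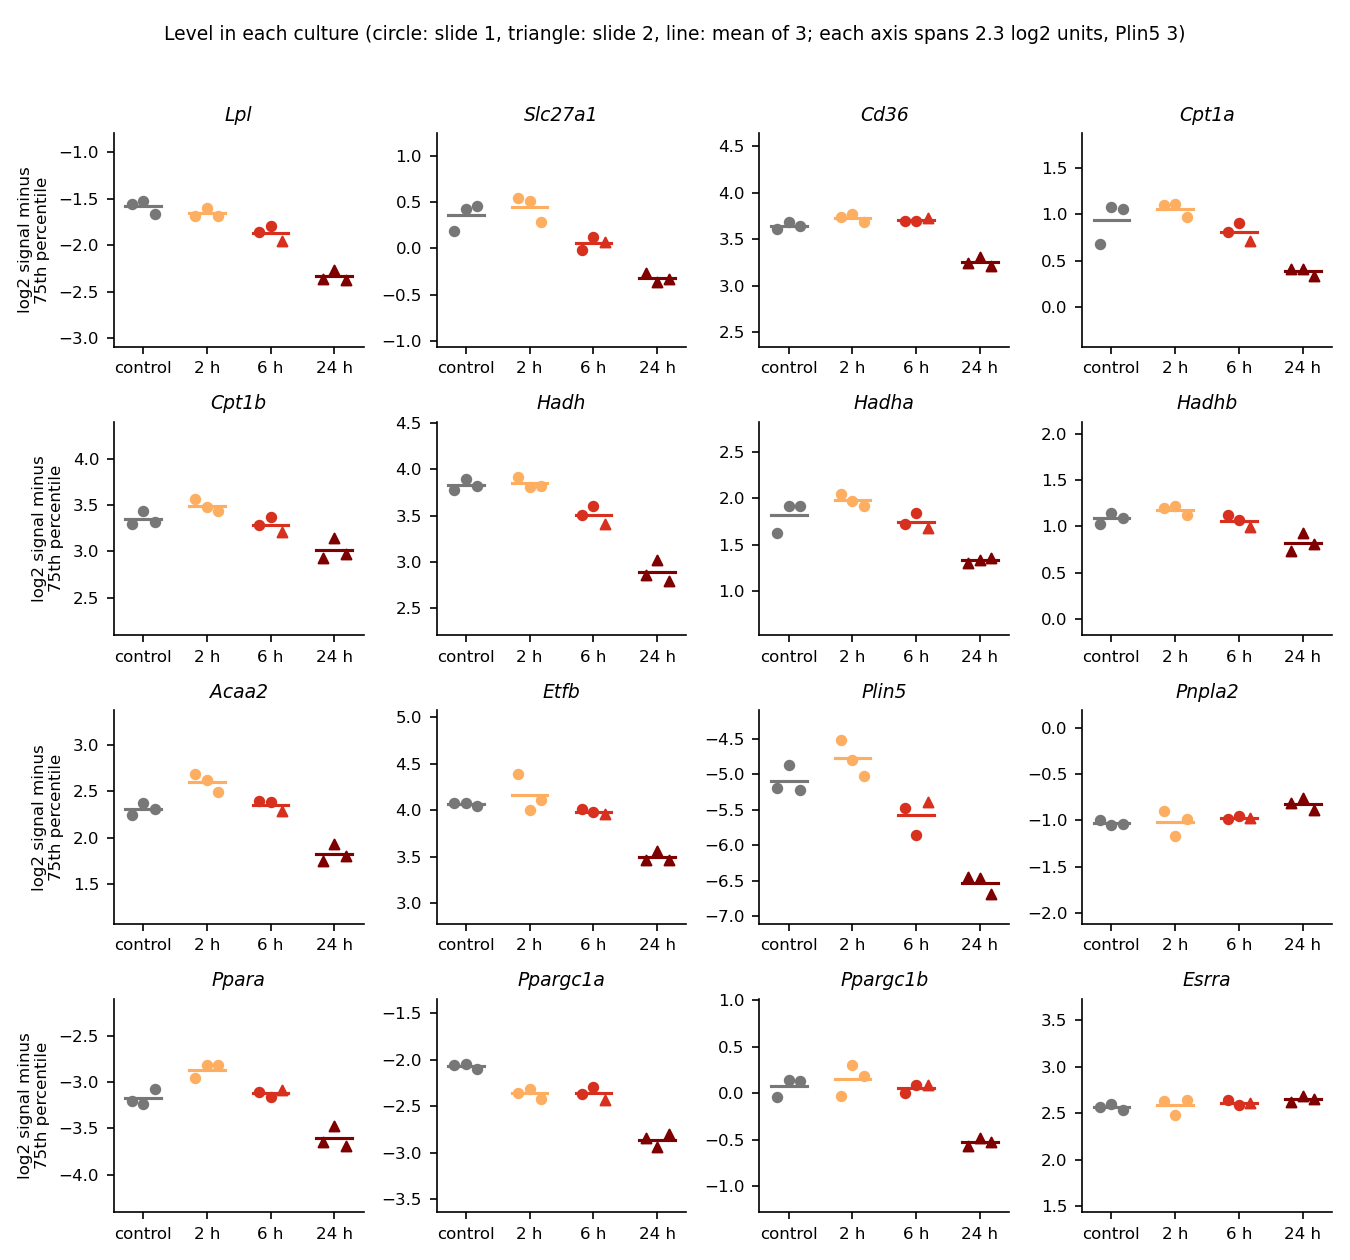
Level of 16 members in each of the 12 cultures, as log2 processed signal minus the 75th percentile of the array, with circles for arrays of slide 1, triangles for slide 2 and a line at the mean of 3. Lpl and Hadh step down at 6 h and 24 h, Ppargc1a at 2 h and 24 h, Acaa2 and Ppara are highest at 2 h, and Esrra stays between 2.48 and 2.68.

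RefSeq's table held promoters for 30 of the 35 members, and Acadl, Acaa2, Cpt1b, Decr1 and Lpl were not in it. Each window runs from 250 bases before to 50 after the start. AGGTCA on either strand was found in the windows of 9 of the 30 members (Acadvl, Echs1, Eci1, Eci2, Esrrg with 4 windows, Hadhb, Plin5, Slc27a1 and Ucp3), and in 16.2% of all 33469 windows of 300 bases. The matches of Hadhb and Eci2 lie after the start. Among these members are enzymes that fell by 0.18 to 0.34 at 24 h (Acadvl, Echs1, Eci1, Eci2 and Hadhb), and Esrrg, which was not called. The estrogen-related receptor element TNAAGGTCA (both strands, a longer form that contains the hexamer) was in 1.2% of all windows and in none of the members', and the direct repeat AGGTCANAGGTCA, also built from the hexamer, was in 0.0538% and in none of the members'. No binding was measured here, and a match or its lack says nothing about whether a receptor acts there.

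Between the stretch times nearly all calls of members were lower at the later time. At 6 h 7 members were called lower than at 2 h and none higher (Plin5, Acaa2, Eci1, Hadh, Ppara, Lpl and Slc27a1), 20.6% of the members beside 10.5% of all genes, of which 3.68% were higher and 6.8% lower. Levels of 19 members at 6 h lay wholly below those at 2 h (55.9%), where the groups did not overlap for 34.6% of all genes. The count was 0 on slide 1 alone, 0 in a fit of the 2 groups, 0 without 2 h replicate 1, 3 without 2 h replicate 2, 1 without 6 h replicate 1 or 3, and 4 without 24 h replicate 1. From 6 h to 24 h 24 members were called lower and none higher (70.6%), where 25.0% of all genes were called, 9.57% higher and 15.5% lower. The 6 h and 24 h cultures did not overlap for 28 members (82.4%), beside 45.7% of all genes. All 24 were among the 27 called lower at 24 h against control, and Acadm, Acads and Etfa were the other 3. The steepest of these falls were in Plin5 (-0.96 ± 0.16, adjusted p = 0.00153), Decr1 (-0.62 ± 0.08, 2.44e-04), Hadh (-0.61 ± 0.07, 1.59e-04) and Ppargc1b (-0.59 ± 0.08, 5.28e-04). Under the slide block 11 were called, and on slide 2 alone, with a single 6 h culture, 2. From 2 h to 24 h 31 members were called lower and 1 higher (94.1%), where 48.2% of all genes were called, 18% higher and 30.2% lower, and 31 did not overlap (91.2%), beside 57.6% of all genes. By group mean the level was lowest at 24 h for 32 of 34 members and highest at 2 h for 29, with Pnpla2 and Esrra the exceptions to the first. The shares of all genes with their lowest or highest mean at these times are not reported here, so these counts describe the members alone. The order also depends on the scaling. The members' median change against control at 2, 6 and 24 h was 0.26, 0.44 and 0.11 with spike-in scaling. With median centring it was 0.13, 0.07 and -0.12. By the times at which they were called against control, 20 members were called lower at 24 h alone, 4 were lower at 6 h as well (Lpl, Slc27a1, Hadh and Ppargc1a), 3 were first higher at 2 h (Acaa2, Decr1 and Ppara), and 5 were called at no time (Fabp3, Acot2, Pdk4, Esrra and Esrrg). The remaining 2 were Slc25a20, higher at 2 h, and Pnpla2, higher at 24 h. A moderated F test over the 4 groups called 29 of 34 members, beside 52.8% of all genes.

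Under the slide block 10 of the 34 members were called lower at 24 h and none higher (29.4%), where 10.8% of all genes were called lower in that fit. These 10 were Cd36, Lpl, Slc27a1, Cpt2, Hadh, Etfb, Plin5, Ppara, Ppargc1a and Ppargc1b. The other 17 members that were lower without the block had changes of -0.41 to -0.09 with it, all still below 0, and adjusted p of 0.0586 to 0.576. The block rests on the 6 h cultures, the only group on both slides, and it raised the median standard error of the members' 24 h change from 0.0614 to 0.113. The median change of the members with the block was -0.25, against -0.08 for all genes.

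**Figure D3:**
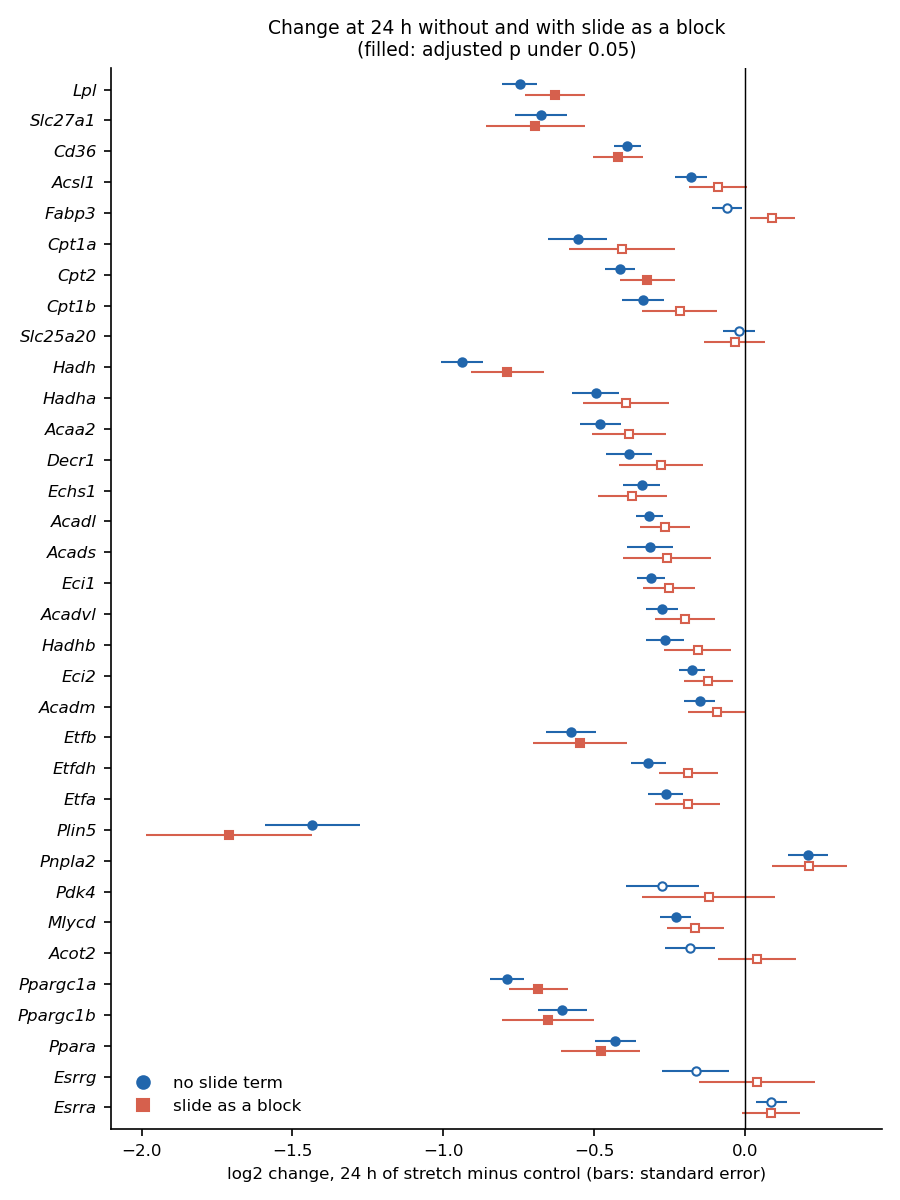
Log2 change at 24 h against control for each member, fitted without a slide term (circles) and with the slide as a block (squares), with standard errors. Of the 28 members called without the block, 10 stay called with it (filled squares), and the 17 lower members that lose the call lie between -0.41 and -0.09.

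Genes around the pathway were followed in lists of related function, chosen by name. Beside the counts of each list at 24 h, 16.2% of all genes were called higher and 31.7% lower. These shares were 38.8% and 15.3% with median centring and 34% and 4.03% with spike-in scaling. With the slide as a block 10.8% of all genes were called lower. Other acyl-CoA enzymes, mostly mitochondrial, included those of branched-chain amino acid and propionate breakdown. Of the 20 tested 2 were called higher and 13 lower at 24 h, with a median of -0.40 (0.03 with spike-in scaling). At 6 h 8 of the 20 were called lower and 0 higher, beside 11.7% and 5.06% of all genes. With the slide as a block 5 were lower and 0 higher, beside 8.19% and 2.94% of all genes. Median centring gave 1 lower and 1 higher, beside 5.16% and 14.4% of all genes. Spike-in scaling gave 0 lower and 5 higher, beside 0.341% and 42.1% of all genes. Fitted with a slide term, 11 of the 20 were lower at 24 h. Acss1, the mitochondrial acetyl-CoA synthetase, fell by 0.97 ± 0.10, and the acyl-CoA dehydrogenases Acad11 and Acad10 by 0.73 ± 0.07 and 0.66 ± 0.06. Of 11 peroxisomal oxidation genes 7 were lower and none higher at 24 h (median -0.26, and 0.17 with spike-in scaling), led by Pecr (-0.61) and the bifunctional enzyme Hsd17b4 (-0.42), and with the slide as a block 1 of the 11 was.

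Other acyl-CoA synthetases, transporters and binding proteins had 4 higher and 5 lower of 15 at 24 h, where 16.2% and 31.7% of all genes were called. They had 1 and 4 with the slide as a block, 7 and 4 with median centring, and 9 and 2 with spike-in scaling. Fabp4, a binding protein of adipocytes, macrophages and endothelium, fell by 1.70 ± 0.10 (adjusted p = 7.34e-07) and the synthetase Acsl6 by 1.0 ± 0.13, while Slc27a4, a further fatty acid transport protein, rose by 0.57 ± 0.08 (adjusted p = 2.74e-04), whereas Slc27a1 fell. The 2 genes of this list called higher at 2 h, named after their values were seen, were Slc27a4 (0.33) and Angptl4 (0.46), a secreted inhibitor of lipoprotein lipase and a Ppar target. Angptl4 lost its 2 h call under the slide block (adjusted p = 0.0594), and with normexp neither gene was called. Angptl4 was called higher at 6 h too (0.59 ± 0.13, adjusted p = 0.0115), when Lpl was lower, and at 24 h its change was 0.09 ± 0.13 (adjusted p = 0.567). At the lipid droplet 1 gene was higher and 6 lower of 12 at 24 h, 0 and 2 with the slide as a block, 5 and 3 with each array centred on its median, and 5 and 1 with spike-in scaling. G0s2, the inhibitor of Pnpla2, fell by 0.98 ± 0.06 (adjusted p = 1.54e-06), in the direction opposite to the lipase it binds, and the lipase Mgll by 0.72 ± 0.07 and the acyltransferase Gpam by 0.57 ± 0.13. The call of Mgll remained with the slide as a block (-0.76 ± 0.14) and that of Gpam did not (-0.51 ± 0.25, adjusted p = 0.206). G0s2 was called lower also at 2 h (-0.41 ± 0.06) and 6 h (-0.23 ± 0.06, not called under the slide block), and its 24 h call remained with the slide as a block (-1.02 ± 0.12, adjusted p = 9.34e-04). Of the 9 genes of malonyl-CoA synthesis and AMP kinase 1 was lower and 1 higher at 24 h: Acacb, which makes malonyl-CoA at the mitochondrion, fell by 0.50 ± 0.09, and the kinase subunit Prkaa1 rose by 0.22 ± 0.06. Under the slide block neither was called: Acacb had -0.53 ± 0.17 (adjusted p = 0.0635) and Prkaa1 0.19 ± 0.12 (0.296).

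The partners and coregulators of the nuclear receptors had 3 higher and 8 lower of 20 at 24 h, where 16.2% and 31.7% of all genes were called. They had 1 and 3 with the slide as a block, 5 and 3 with median centring, and 4 and 1 with spike-in scaling. Rxrg, the form of the retinoid X receptor, partner of Ppara, that is enriched in muscle, fell by 0.90 ± 0.07 (adjusted p = 5.91e-06; -0.76 ± 0.13 with the slide as a block), Mef2c by 0.58 ± 0.06 and Klf15, a cardiac regulator of lipid use, by 0.56 ± 0.06. Of 17 genes taken as a gauge of mitochondrial mass 4 were higher and 4 lower at 24 h, with a median of -0.10, where all genes had -0.08 and the members -0.32. The succinate dehydrogenase subunit Sdha fell by 0.38 ± 0.05, while the import receptor Tomm70 rose by 0.35 ± 0.04, and both calls remained with the slide as a block (-0.37 ± 0.09 and 0.38 ± 0.07), where 1 of the 17 was higher and 1 lower. With each array centred on its median the mass genes had 7 higher and 2 lower, and with spike-in scaling 5 and 0.

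**Figure D4:**
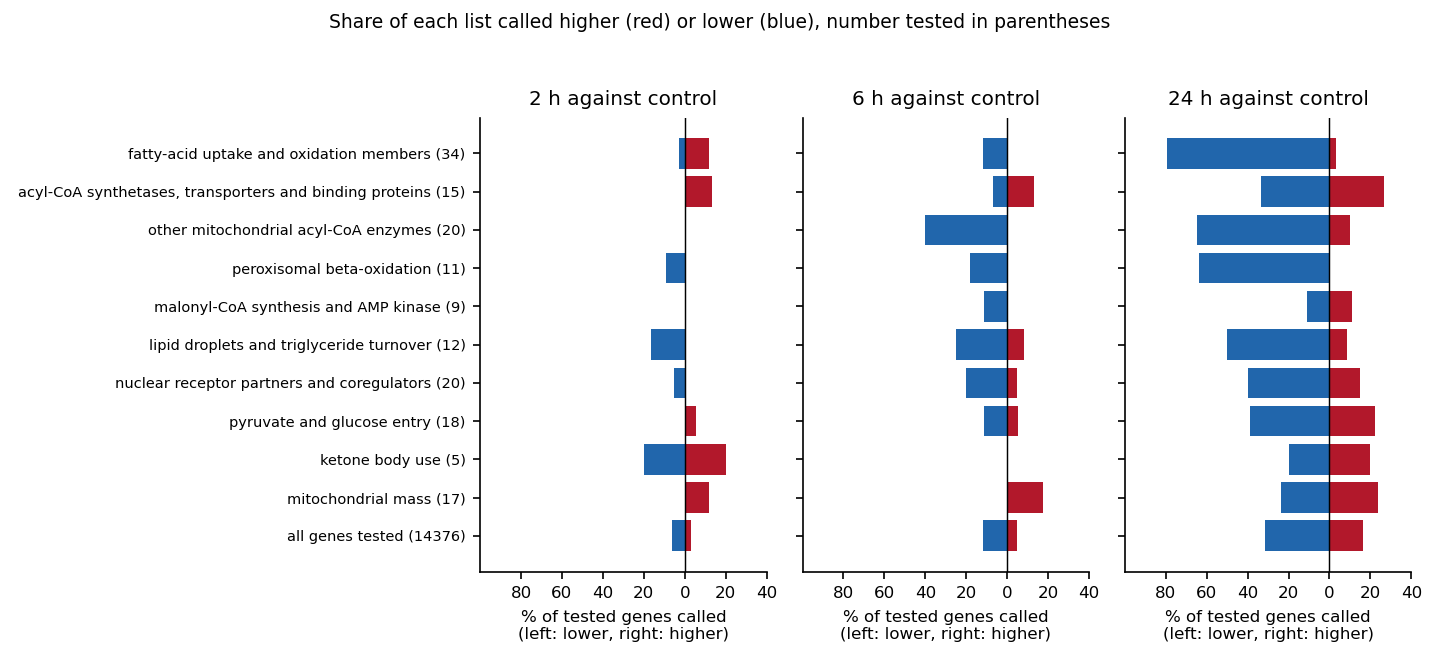
Percentage of the tested genes of each list called lower (blue, left of 0) or higher (red, right of 0) than control at 2, 6 and 24 h, with all 14376 genes tested in the bottom bar. At 24 h 79.4% of the members were lower beside 31.7% of all genes, under scaling to the 75th percentile of each array.

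Markers of cell types moved in the same cultures. Of all genes 16.2% were called higher and 31.7% lower at 24 h, and 34% and 4.03% with spike-in scaling. Of 11 cardiomyocyte markers (troponins, myosins, calcium-handling genes) 9 were lower and 1 higher at 24 h, with a median of -0.34 and a summed level, as linear signal over the 75th percentile, of 807 to 873 in control and 651 to 707 at 24 h. The members' median was -0.32. With the slide as a block 2 of the 11 were lower, and with spike-in scaling none, with a median of 0.09. All 10 tested macrophage and leukocyte markers were lower at 24 h, with a median of -1.34, and their sum went from 21.6 to 22.1 in control to 7.94 to 8.96 at 24 h, and Cd36, Lpl and Fabp4 are genes that macrophages also express. Of 10 endothelial markers 6 were lower and 1 higher, with a sum of 3.34 to 3.54 in control and 2.48 to 2.79 at 24 h. Fibroblast markers had 8 lower of 11 (184.8 to 198.3 in control, 138.6 to 156.4 at 24 h) and smooth muscle and pericyte markers 5 lower and 1 higher of 8 (35.7 to 36.0, and 29.9 to 31.6). Under the slide block 9 macrophage, 4 endothelial, 5 fibroblast and 3 smooth muscle markers were lower, and with spike-in scaling 9, 0, 0 and 1. Of 6 adipocyte markers Adipoq, Lep, Plin1, Cidec and Retn did not pass the filter, and Cfd, which did, fell by 2.43 ± 0.10. At 6 h, when Lpl, Slc27a1, Hadh and Ppargc1a were lower, the summed levels of the macrophage markers were 20.2 to 22.2 and of the cardiomyocyte markers 772 to 812. Of the 10 macrophage markers 2 were called lower at 6 h, beside 11.7% of all genes, and all 10 changes were below 0 (median -0.11). Of the 11 cardiomyocyte markers 0 were called at 6 h, with 8 changes below 0 and 3 above (median -0.06). All genes had a median of -0.05. The part of cell composition in the members' changes was not tested.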

How the data were processed

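Each of 12 arrays read the RNA of 1 culture in 1 dye. Per the file headers, Agilent Feature Extraction 11.0.1.1 wrote the deposited scanner files; version 10.7.3.1 is the one listed in the submitters' processing notes. The authors deposited processed intensity values, background-subtracted and spatially detrended within each array and not scaled between arrays, per the file headers, with spot flags of the same software. Their value table held linear intensities of 28902 probes with the scaling between arrays not stated, and its column medians were 7.02 to 7.14 as log2. Outlier spots were left out. Probe positions are on rn4, per the file headers.

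The log2 processed signal minus the 75th percentile of its array was averaged over spots of a probe. A probe was kept, as 18997 of 30367 were, if some group had it well above background on each of its 3 arrays, and a gene was read by its probe with the highest mean signal. Member names were those of the scanner files, and the other probes were named through RefSeq tables where an accession (17958 probes), symbol (2676) or synonym (547) matched and as in the files otherwise. Group means were fitted over all arrays with lmFit and eBayes of limma 3.58.1 (R 4.3.3, data.table version 1.17.8), with p-values adjusted by Benjamini-Hochberg over 14376 genes. The code was tested on simulated data. Tables and figures used Python 3.11.15, pandas 2.3.3 and matplotlib 3.10.9. With 3 arrays a group, the number of arrays limits the precision.

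Members called against control at any time have all values given, and companion lists their counts and up to 3 called genes of largest change at 24 h; some are not reported here. The members and lists were chosen with earlier results of these data known. Alternatives changed the background correction, scaling, source of values, filter, probe choice, naming, slide, replicate number, samples fitted, eBayes options and single arrays. Replicate numbers did not pair the samples: deviations from group means of same-numbered cultures correlated at -0.11 to 0.10 over 18 pairs.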

Additional observations from a re-analysis of the deposited data

Results flagged for a closer look

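Acaa2, Decr1 and Ppara were called higher at 2 h and lower at 24 h, which is what brings them here. Their 24 h cultures differed from their 2 h cultures by -0.77 ± 0.07 for Acaa2, -0.67 ± 0.08 for Decr1 and -0.74 ± 0.07 for Ppara on the log2 scale (difference ± SE of the limma fit), with all 3 cultures at 2 h above all 3 at 24 h for each gene. Since the genes were picked by their calls in opposite directions, these differences are a description and not an independent test. The 2 h and 24 h cultures were hybridised on different slides, so the slide and the duration of stretch cannot be told apart within these differences.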

How the results depend on the processing

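The counts of called members moved with the scaling and the slide. At 24 h (28 called) the count was 17 with arrays centred on their median, 4 with spike-in scaling and 10 with the slide as a block. The other counts under spike-in scaling were 0 at 2 h (5), 16 at 6 h (4), 0 for 6 h against 2 h (7), 4 for 24 h against 6 h (24) and 9 by the F test (29). Median scaling gave 7 at 6 h and 3 for 6 h against 2 h. With the slide as a block 6 h against 2 h had 1, 24 h against 6 h had 11 and the F test 12. For comparisons between stretch times and for the F test, the share of all genes called under these alternatives is not reported here. Those counts therefore describe the members alone. On slide 1 alone 6 h had 2 and 6 h against 2 h had 0, and on slide 2 alone, an alternative chosen after seeing the data with a lone 6 h culture assumed to vary like the others, 24 h against 6 h had 2. The count for 6 h against 2 h was also 3 with normexp, 4 with quantile normalization, 1 without a filter and 0 in a fit of these groups alone, and the 2 h count was 2 without a filter and 1 in a fit of these groups alone.

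Leaving out each culture in turn gave counts of 2 to 5 at 2 h, 3 to 6 at 6 h, 25 to 29 at 24 h, 0 to 7 for 6 h against 2 h, 20 to 26 for 24 h against 6 h and 27 to 30 by the F test, and medians of 0.06 to 0.10, -0.08 to -0.01 and -0.35 to -0.30 at 2, 6 and 24 h. The members' median moved to 0.26 at 2 h, 0.44 at 6 h and 0.11 at 24 h with spike-in scaling and to 0.0669 at 6 h and -0.12 at 24 h with median scaling. The replicate number as a block gave 4 called at 2 h, 3 at 6 h, 28 at 24 h, 6 for 6 h against 2 h, 24 for 24 h against 6 h and 29 by the F test.

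Directions of members turned under scalings that, by construction, shift all genes of an array alike. Only changes that turned and were called with the scaling, without it or both ways are listed below. Changes that turned but were called neither way are left out. Over all times against control there were 15 of these with median scaling and 20 with spike-in scaling. Median scaling gave at 24 h Fabp3 0.13, Acsl1 0.0156, Slc25a20 0.17, Acadm 0.0441 and Eci2 0.0182. Spike-in scaling gave at 6 h Lpl 0.19, Slc27a1 0.16, Acadvl 0.46, Hadh 0.14, Eci2 0.46, Acot2 0.46, Ppargc1a 0.18 and Ppargc1b 0.45, and at 24 h Cd36 0.0371, Acsl1 0.25, Cpt1b 0.0894, Cpt2 0.0137, Acadvl 0.15, Acadl 0.11, Acadm 0.28, Acads 0.11, Hadhb 0.16, Echs1 0.0857, Eci1 0.12, Eci2 0.25, Decr1 0.0434, Etfa 0.16, Etfdh 0.11 and Mlycd 0.20. Of all genes 15.3% were called lower and 38.8% higher at 24 h with median scaling, 4.03% and 34% with spike-in scaling, and 10.8% and 3.46% with the slide as a block. For the other settings the cause of a lost call was not tested. Of the 28 members called at 24 h 2 kept their call under every alternative that tested them and 10 under every one but spike-in scaling. Dim probes such as those of Plin5, Pdk4 and Esrrg limit how well their changes are known.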

Other observations

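Genes of glucose and pyruvate entry were chosen by name as those of the fuels beside fatty acids. Of 18 glucose and pyruvate genes 4 were called higher and 7 lower at 24 h, with a median of -0.11, where 16.2% and 31.7% of all genes were. The insulin-responsive glucose transporter Slc2a4 fell by 0.68 ± 0.07, and the pyruvate dehydrogenase kinases Pdk2 and Pdk1 fell by 0.54 ± 0.07 and 0.51 ± 0.07. With the slide as a block 0 of the 18 were higher and 4 lower, and with spike-in scaling 6 were higher and 0 lower.

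Bdh1, the mitochondrial 3-hydroxybutyrate dehydrogenase, which works in ketone body use, fell by 0.35 ± 0.08 at 2 h (limma adjusted p = 0.0279) and rose by 0.43 ± 0.08 at 24 h (adjusted p = 0.0021), the latter not called with the slide as a block (0.36 ± 0.16, adjusted p = 0.162).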
